A study of Mus musculus with 6 samples.

Results

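Ribosome biogenesis genes and RNA polymerase I (Pol I) genes were examined as a list of 59 symbols, grouped by known function. A member was measured through the probe sets that the array annotation assigns to that symbol alone, and where a gene had several, the one with the highest average signal stood for it. This gave 57 members, all of which passed the filter on dim signals and belong to the 13194 genes tested. The remaining symbols were Mrto4, whose probe set also carries the symbols of its pseudogenes, and Npm3, which was not analysed here.

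The samples are P14 cytotoxic T cells, CD8 T cells of C57Bl/6 mice whose transgenic receptor is specific for gp33, a viral peptide. Splenocytes were activated with gp33 for 24 h and infected with a retrovirus that encodes a GFP fusion of a phosphorylation-deficient HDAC7, and 3 GFP positive samples, which carry this mutant, were compared with 3 GFP negative samples, labelled control. HDAC7 is a histone deacetylase whose phosphorylation sends it out of the nucleus. Both groups come from infected, peptide-activated cultures, so the control is the untransduced remainder of such a culture. Empty-vector cells were not analysed here, and the promoter that drives the construct is not named in the labels. Total RNA of each sample was hybridised to 1 Affymetrix whole-genome mouse array. The labels call the samples of a group biological replicates without naming animals or cultures. The p-values therefore reflect the spread among these arrays, which may be technical.

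Ribosomes are built in the nucleolus. Pol I transcribes a long precursor RNA, small nucleolar ribonucleoproteins (snoRNPs) guide its chemical modification, and a large set of assembly factors folds and cuts it into the RNAs of the small (40S) and large (60S) subunits. T cells enlarge their nucleoli and raise this output when antigen drives them to grow and divide, and the transcription factor MYC is a known activator of many of the genes involved.

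The arrays had median log2 signals of 1.62 to 1.66 in GFP positive samples and 1.69 to 1.72 in GFP negative samples, and control probe sets with no mouse target averaged 0.66 and 0.64 in those groups. The probe set for Hdac7 read 8.09, 8.18 and 8.17 in the GFP positive samples, against 4.86, 4.83 and 4.81 in the GFP negative samples (log2 signal), which fits the labels. The second Hdac7 probe set changed by -0.55 (adjusted p = 0.0022 in a limma fit over probe sets). The T cell genes Cd3e, Cd3g, Cd8a and Cd8b1 were bright in every array and rose, by 0.55, 0.67, 1.24 and 1.15 (log2). Thy1, also bright, read 11.22, 11.31 and 11.33 in GFP positive samples and 10.75, 11.07 and 11.38 in GFP negative samples. It did not pass (0.22, limma adjusted p = 0.26). Of 33 markers of other cell types fixed for this check, 27 had a probe set and 15 of those lay under the dim level, among them the neutrophil genes S100a8 and S100a9 and the NK cell gene Ncr1. Of the 12 tested, 3 rose (Cd68, Zbtb7b and Pecam1), 3 fell (Flt3, Zbtb46 and Siglech) and 6 did not pass. Siglech, Zbtb46, Flt3 and Cd68 lay low, with group averages between 1.64 (Siglech, GFP positive) and 2.86 (Cd68, GFP positive). Pecam1, Zbtb7b and the B cell gene Cd79b, which did not pass, lay higher. They averaged 4.14, 3.86 and 4.35 in GFP positive samples and 2.98, 3.44 and 4.50 in GFP negative samples. With the replicate number as a block, Siglech no longer passed (-0.22, limma adjusted p = 0.057) and the macrophage gene Csf1r did (-0.32, limma adjusted p = 0.024). The summed linear signal of the 27 markers was 118 to 128 in GFP positive samples and 114 to 118 in GFP negative samples, and the part of such cells in the results was not tested. In RNA from a cell population, fewer cells with a transcript and less transcript per cell cannot be told apart.

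Nearly the whole list was lower in GFP positive cells. Of 57 members, 53 fell, none rose and 4 did not pass the test (limma, Benjamini-Hochberg adjusted over all genes tested, threshold 0.05). The background is that 17.5% of all genes tested were called lower and 24.6% higher. The median change of the members was -0.71 on the log2 scale, or 1.63-fold lower, against -0.02 over all genes tested. Falls ranged from 1.23-fold for Bms1 to 2.63-fold for Polr1b, and limma adjusted p from 9.4e-05 to 0.023. The size was modest: 6 members were called lower and at least 2-fold lower, which held for 1.64% of all genes tested.

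The separation between groups was visible array by array. In 55 of 57 members every GFP positive sample lay below every GFP negative sample, which held for 24.2% of all genes tested. The median member read 6.78, 6.95 and 6.87 (log2) in GFP positive samples 1 to 3 and 7.55, 7.64 and 7.65 in GFP negative samples 1 to 3. Taken by replicate number, the median difference was -0.76, -0.60 and -0.76, and 56 of 57 members were lower in all 3 numbers, against 33.3% of all genes tested. GFP positive 1 was the lowest GFP positive sample for 36 members and GFP positive 2 the highest for 41. The spread between GFP positive samples exceeded that between GFP negative samples in 54 members, with median SDs of 0.12 and 0.06. The shares of all genes tested with these orders and spreads were not computed. These counts therefore cannot be read as a trait of the members.

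**Figure D1:**
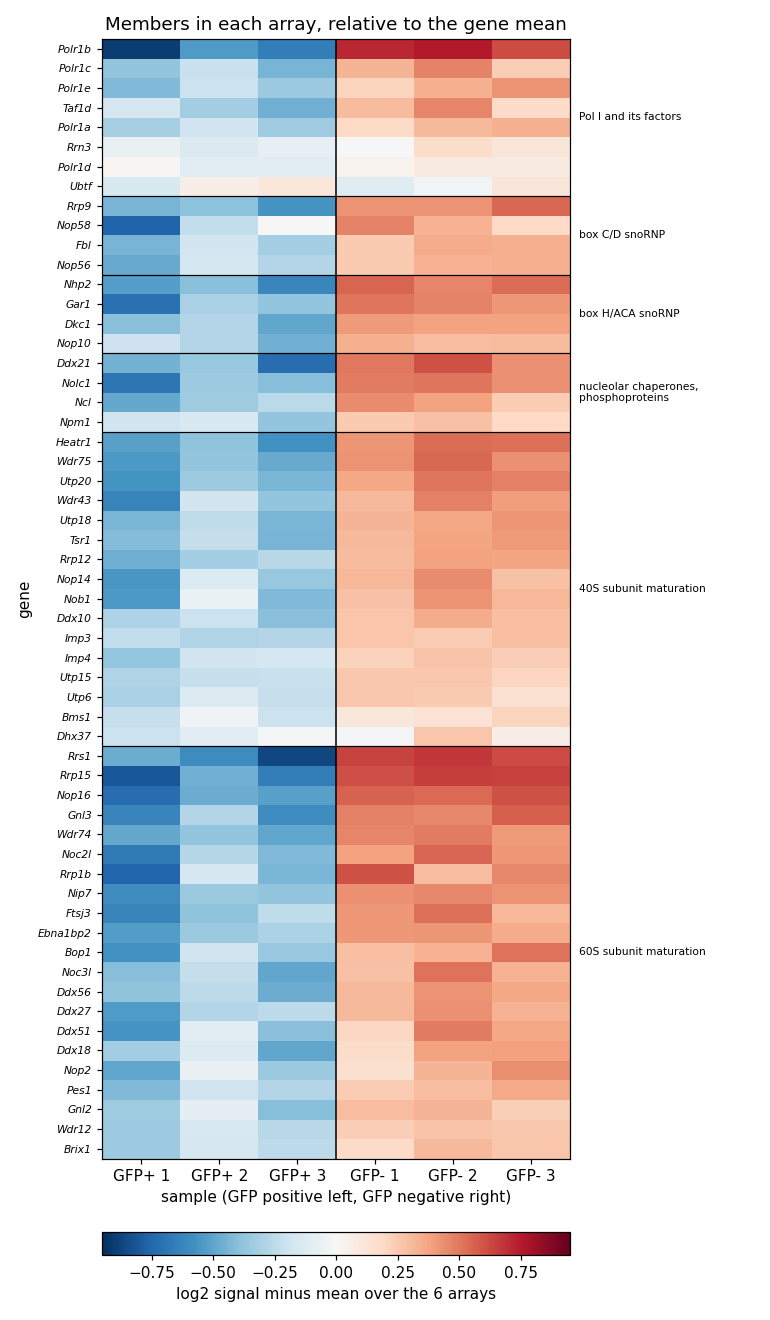
Log2 signal of each of the 57 members in each array, as the difference from the gene's own mean over the 6 arrays (colour), with GFP positive samples left of the line and GFP negative samples right of it. Rows are grouped by role. Almost every row is blue on the left and red on the right, and Ubtf, Rrn3, Polr1d and Dhx37 are among the palest.

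Pol I itself showed an uneven fall, with 5 of 8 members lower and 3 that did not pass. Polr1b, which encodes the second-largest catalytic subunit, read 3.98, 4.35 and 4.24 in GFP positive samples 1 to 3 and 5.61, 5.65 and 5.51 in GFP negative samples 1 to 3. The highest GFP positive sample lay far below the lowest GFP negative one. The change was -1.40 ± 0.11 (SE), or 2.63-fold lower (limma adjusted p = 9.4e-05), the largest of all members on the deposited scale. This probe set lies low, and the change was -0.67, still past the threshold, when 32 was added on the linear scale before taking logs. In that setting 17 members had larger falls, led by Rrs1 at -1.15.

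Polr1c encodes a subunit shared by Pol I and Pol III. It read 6.78, 6.94 and 6.72 in GFP positive samples and 7.48, 7.63 and 7.40 in GFP negative samples, a change of -0.69 ± 0.10 (SE, limma adjusted p = 0.001). Polr1e, a Pol I subunit that takes part in initiation and elongation, read 5.70, 5.92 and 5.77 in GFP positive samples and 6.34, 6.46 and 6.55 in GFP negative samples, a change of -0.65 ± 0.09 (SE). Neither gene's groups overlapped. Polr1a, the largest catalytic subunit, changed by -0.56, and Taf1d, a subunit of the promoter selectivity complex SL1, by -0.63. The probe sets that stand for Taf1d, Polr1e and Polr1c are of types that can also bind related transcripts. So are those for Rrs1, Nhp2, Gar1, Fbl, Nop56, Tsr1 and Bms1, which makes 10 members. The other Taf1d probe sets changed by -0.75 to -0.17.

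The Pol I members that did not pass were a pair of regulators and a shared subunit. Ubtf, which encodes the factor UBF that keeps ribosomal DNA open for transcription, read 7.95, 8.16 and 8.20 in GFP positive samples and 7.98, 8.06 and 8.21 in GFP negative samples. Its groups overlapped fully, with a change of 0.02 ± 0.10 (SE, limma adjusted p = 0.87). Rrn3, which encodes the initiation factor that joins Pol I to SL1 and responds to growth signals, read 6.42, 6.35 and 6.41 in GFP positive samples and 6.49, 6.66 and 6.60 in GFP negative samples, a change of -0.19 ± 0.08 (limma adjusted p = 0.09). Polr1d, shared by Pol I and Pol III like Polr1c, averaged 9.28 ± 0.07 (SD, n = 3) in GFP positive and 9.42 ± 0.03 in GFP negative samples. Its brightest probe set did not pass (limma adjusted p = 0.18), while 2 others changed by -0.34 and -0.36 and passed in a limma fit over probe sets (adjusted p = 0.019 and 0.014). Differences between Ubtf or Rrn3 and the subunits were not tested.

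**Figure D2:**
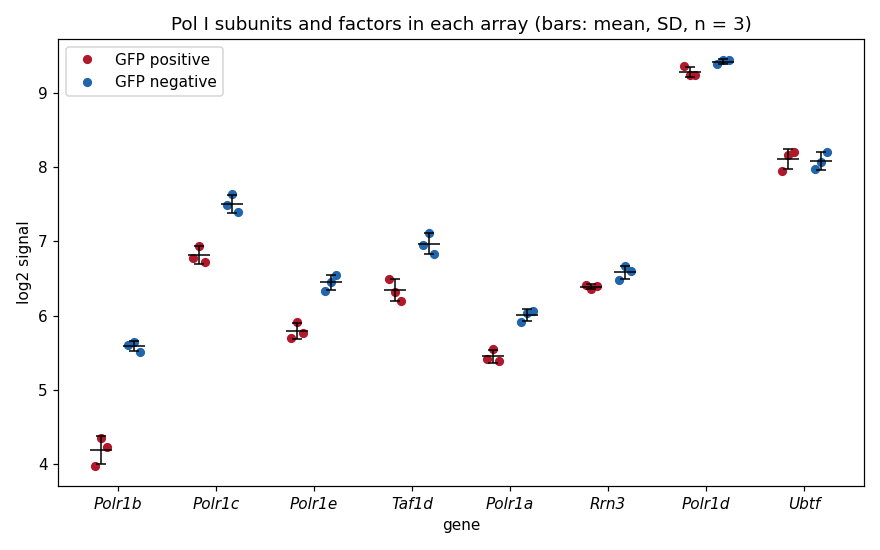
Log2 signal of the 8 Pol I genes in each array, GFP positive (red, left) and GFP negative (blue, right), with points for the 3 samples of a group and bars for mean and SD. The groups lie clear of each other for Polr1b, Polr1c, Polr1e, Taf1d and Polr1a, lie close for Rrn3 and Polr1d, and overlap for Ubtf. Heights of different genes come from different probe sets and are not comparable.

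Genes for both classes of snoRNP fell, 8 of 8. Box C/D particles carry the 2'-O-methyltransferase fibrillarin, and box H/ACA particles carry the pseudouridine synthase dyskerin. Nhp2, a core protein of the H/ACA class, read 9.30, 9.42 and 9.20 in GFP positive samples and 10.38, 10.28 and 10.35 in GFP negative samples. That is a change of -1.03 ± 0.09 (SE), or 2.04-fold lower (limma adjusted p = 1.2e-04), and its second probe set fell as well (adjusted p = 2.2e-04 in a limma fit over probe sets). Gar1, another core protein of that class, read 7.45, 7.84 and 7.78 in GFP positive samples and 8.66, 8.62 and 8.57 in GFP negative samples. Dkc1, the dyskerin gene, read 9.09, 9.21 and 8.99 in GFP positive samples and 9.89, 9.87 and 9.87 in GFP negative samples. The GFP negative samples hardly differed for Dkc1, with an SD of 0.01. Changes were -0.93 ± 0.11 for Gar1, -0.78 ± 0.08 for Dkc1 and -0.62 ± 0.09 for Nop10, a further core protein gene of that class, where GFP positive samples read 9.45, 9.37 and 9.19 and GFP negative samples 9.98, 9.94 and 9.95.

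In the C/D class, Fbl (fibrillarin) read 9.70, 9.97 and 9.83 in GFP positive samples and 10.40, 10.50 and 10.49 in GFP negative samples. Nop56, one of the paired scaffold proteins of that particle, read 9.14, 9.45 and 9.34 in GFP positive samples and 9.87, 9.95 and 9.95 in GFP negative samples. Both genes fell by similar amounts, Fbl with a change of -0.63 ± 0.09 (SE) and Nop56 with -0.61 ± 0.10. Rrp9, specific to the U3 snoRNP that directs early cuts in the precursor, read 5.75, 5.80 and 5.63 in GFP positive samples and 6.61, 6.61 and 6.73 in GFP negative samples, a change of -0.93 ± 0.08 (SE, limma adjusted p = 1.6e-04). Nop58, the other scaffold, was the most variable member, with 7.39, 7.91 and 8.15 in GFP positive samples and 8.61, 8.47 and 8.33 in GFP negative samples. GFP positive 3 lay close to GFP negative 3, and the change of -0.66 ± 0.18 (limma adjusted p = 0.021) lost its call without GFP negative 1 (-0.59, adjusted p = 0.074) or GFP negative 2 (-0.66, adjusted p = 0.054).

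Abundant nucleolar proteins followed the same direction, 4 of 4 tested. Ddx21, an RNA helicase active in rRNA transcription and processing, read 6.85, 6.94 and 6.57 in GFP positive samples and 7.80, 7.90 and 7.73 in GFP negative samples. Nolc1 (Nopp140), a phosphoprotein that binds snoRNPs, read 7.38, 7.72 and 7.67 in GFP positive samples and 8.57, 8.58 and 8.51 in GFP negative samples. These were the larger falls of the set, with changes of -1.02 ± 0.11 (SE) for Ddx21 and -0.96 ± 0.10 for Nolc1. Ncl (nucleolin) read 10.01, 10.16 and 10.24 in GFP positive samples and 10.94, 10.88 and 10.73 in GFP negative samples, a change of -0.72 ± 0.10 (limma adjusted p = 7.6e-04). Npm1 (nucleophosmin), a histone and ribosome chaperone, read 11.37, 11.42 and 11.19 in GFP positive samples and 11.82, 11.84 and 11.75 in GFP negative samples, a change of -0.48 ± 0.09. The other Ncl probe sets past the dim level changed by -1.13 to -0.78 and the second of Npm1 by -0.60, so the brightest probe set gave the smallest change for both genes.

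Of 16 factors that mature the 40S subunit, 15 fell, with a median change of -0.69. Heatr1, a component of the subcomplex that links Pol I transcription to processing, read 6.61, 6.74 and 6.56 in GFP positive samples and 7.55, 7.66 and 7.65 in GFP negative samples, a change of -0.98 ± 0.08 (SE, limma adjusted p = 1.3e-04). Wdr75, of the same subcomplex, read 6.35, 6.51 and 6.41 in GFP positive samples and 7.32, 7.44 and 7.33 in GFP negative samples, a change of -0.94 ± 0.08. Utp20, a large scaffold of the small-subunit processome, read 5.73, 5.95 and 5.86 in GFP positive samples and 6.66, 6.80 and 6.77 in GFP negative samples, a change of -0.90 ± 0.09. In each of the 3 genes all GFP positive samples lay below all GFP negative ones. Dim other probe sets of Heatr1 (-0.12 and -0.006) and Wdr75 (-0.19) did not pass in a limma fit over probe sets.

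Further processome genes fell by less. Changes were -0.79 for Wdr43 and -0.48 for Utp15, both also of the transcription-linked subcomplex, and -0.74 for Utp18, -0.70 for Nop14 and -0.44 for Utp6. Imp3 and Imp4, which join the U3 RNA to the precursor, changed by -0.53 and -0.48, and the helicase gene Ddx10 by -0.60. Late-acting factors fell too: Nob1, the nuclease that makes the final cut of the small-subunit RNA, changed by -0.68, Tsr1 by -0.72 and Rrp12 by -0.70. Bms1, a GTPase of the processome, had the smallest called fall of all members (-0.30 ± 0.09 SE, limma adjusted p = 0.023). It lost that call without GFP positive 1 or 3 or GFP negative 2 or 3, at changes of -0.31 to -0.27. The call was also lost with arrays centred on the median of all probe sets (-0.23, limma adjusted p = 0.071). Leaving out GFP positive 3 and GFP negative 1 together lost it too (-0.30). Dhx37, a helicase gene, was close to background, at 1.91 ± 0.10 (SD, n = 3) in GFP positive and 2.12 ± 0.14 in GFP negative samples, and did not pass (limma adjusted p = 0.12).

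All 21 tested factors of 60S maturation fell, with a median change of -0.75. Rrs1, known from yeast to help bring the 5S RNA particle into the precursor, read 7.59, 7.46 and 7.19 in GFP positive samples and 8.70, 8.73 and 8.68 in GFP negative samples. Rrp15 read 5.95, 6.30 and 6.09 in GFP positive samples and 7.37, 7.41 and 7.41 in GFP negative samples. Nop16 read 5.99, 6.24 and 6.20 in GFP positive samples and 7.28, 7.25 and 7.31 in GFP negative samples. Rrp15 and Nop16 are nucleolar proteins of the early large-subunit precursor, and for each of the 3 genes the GFP negative samples were tightly grouped. Changes were -1.29 ± 0.11 (SE) for Rrs1, -1.28 ± 0.10 for Rrp15 and -1.14 ± 0.09 for Nop16, with limma adjusted p of 1.2e-04, 9.7e-05 and 9.9e-05. The second Rrs1 probe set changed by -1.18.

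The PeBoW complex, which processes the large-subunit RNA, fell in its 3 genes Bop1 (-0.75), Pes1 (-0.59) and Wdr12 (-0.51). A weak second Wdr12 probe set changed by -0.02, and the mean over probe sets of that gene did not pass (-0.27, limma adjusted p = 0.095). The nucleolar GTPase gene Gnl3 (nucleostemin), known for its role in stem cell proliferation, was 1.995-fold lower, and its relative Gnl2 changed by -0.56. Noc2l and Noc3l, of a family known in yeast for the transport of pre-60S particles, changed by -0.90 and -0.75. The helicase genes Ddx18, Ddx27, Ddx51 and Ddx56 changed by -0.63, -0.71, -0.71 and -0.73, and the RNA methyltransferase genes Nop2 and Ftsj3 by -0.61 and -0.83. Wdr74 (-0.90), Rrp1b (-0.90), Nip7 (-0.88), Ebna1bp2 (-0.79) and Brix1 (-0.50) completed the group. In all 21 genes the GFP positive and GFP negative samples did not overlap.

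**Figure D3:**
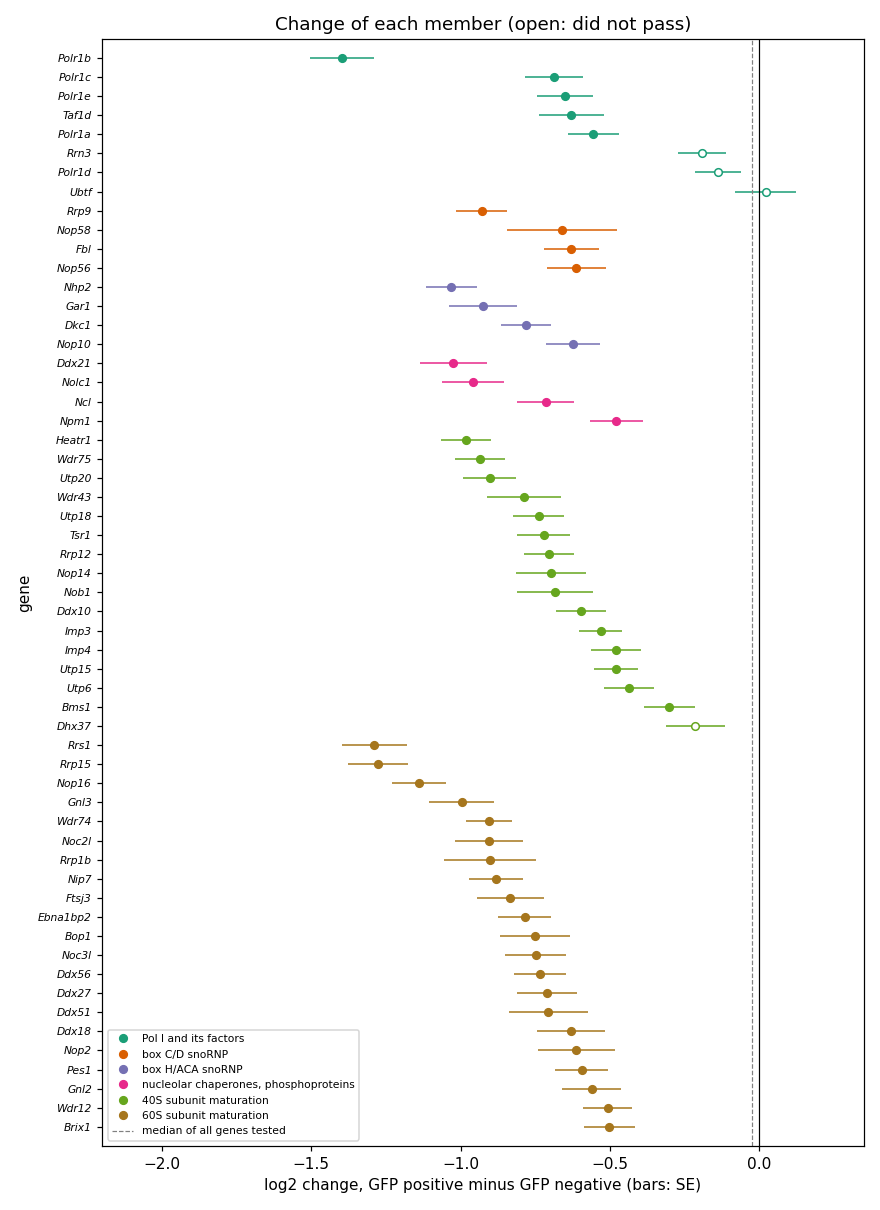
Log2 change of each member, GFP positive minus GFP negative, with its SE (bars), by role. Filled points passed the limma test and open points did not. All filled points lie left of 0, between -1.40 for Polr1b and -0.30 for Bms1, and the dashed line marks the median of all genes tested at -0.02.

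Further probe sets of the same genes were read on the same arrays. The 53 members that fell had 53 other probe sets past the dim level. Of these, 52 had a change below 0, 36 were lower past the threshold in a limma fit over probe sets, and 0 were higher. The exception in sign was a dim Bop1 probe set at 0.02. These genes were already called lower on the same arrays, so the agreement is not separate support. The share of all probe sets lower in that fit was not computed. Of the members that fell, 7 had changes more than 1.5 times smaller with 32 added in linear units. They are Polr1b, Ftsj3, Noc3l, Ddx51, Ddx56, Rrp12 and Polr1a, with changes of -0.67, -0.42, -0.37, -0.37, -0.47, -0.43 and -0.35 in that setting, and each passed there.

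Pathway genes outside the list mostly moved the same way. Of 84 other tested factors of Pol I and of subunit maturation, 60 fell, 1 rose and 23 did not pass, with a median change of -0.50. Among other 40S factors 32 of 40 fell, with the largest changes for Pno1 (-1.12 ± 0.09 SE), a partner of Nob1, and Nol10 (-1.11 ± 0.09). Among other 60S factors 26 of 36 fell, with the largest changes for Rpf2 (-0.93 ± 0.12), which acts with Rrs1, and Wdr18 (-0.90 ± 0.09). Nop53, a late nucleolar factor of the large subunit, was the one that rose, with 10.03 ± 0.12 (SD, n = 3) in GFP positive and 9.62 ± 0.02 in GFP negative samples. Of the 8 other Pol I factors only Cd3eap and Twistnb, both Pol I subunits, fell (-0.96 and -0.45), while the SL1 subunits Taf1a, Taf1b and Taf1c had changes of -0.08, 0.03 and 0.05 and did not pass. The remaining 3 did not pass either: Znrd1, a further Pol I subunit gene, had a difference of 0.12, Ttf1, the termination factor gene, one of 0.29, and Tbp, whose product is part of SL1 and of other initiation complexes, one of -0.21.

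Subunits of the other RNA polymerases were mixed. For Pol III, which makes the 5S RNA and transfer RNAs, 5 of 9 genes fell and 1 rose, with a median change of -0.30. Polr3d changed by -0.55 and Polr3f by -0.49, a call that was lost without GFP positive 1 or 2 or GFP negative 1 or 3 (-0.49 to -0.39), and Polr3gl rose by 0.56. For Pol II, 6 of 10 genes fell and 1 rose. Polr2h, Polr2f and Polr2e, chosen for mention after their values were seen, encode subunits common to all the nuclear polymerases and changed by -0.64, -0.64 and -0.51. Polr2a, the catalytic subunit of Pol II alone, was higher, at 7.21 ± 0.11 (SD, n = 3) in GFP positive and 6.71 ± 0.10 in GFP negative samples, a call that the mean over its probe sets did not keep (0.30, limma adjusted p = 0.061). Of 13 genes of the nuclear RNA exosome, which trims the precursor, 9 fell, with the largest changes for Dis3 (-0.91) and Exosc5 (-0.60).

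Ribosomal proteins, taken by symbol, gave smaller shifts. Among 42 cytosolic ribosomal protein genes 5 fell, 1 rose and 36 did not pass, with a median change of -0.07. The share that fell was 11.9%, below the 17.5% of all genes tested. Their probe sets were very bright, with a median level of 12.04 in GFP positive and 12.13 in GFP negative samples (log2). Among 76 mitochondrial ribosomal protein genes 44 fell (57.9%) and 1 rose, with a median change of -0.30. Whether the members differ from these groups was not tested.

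**Figure D4:**
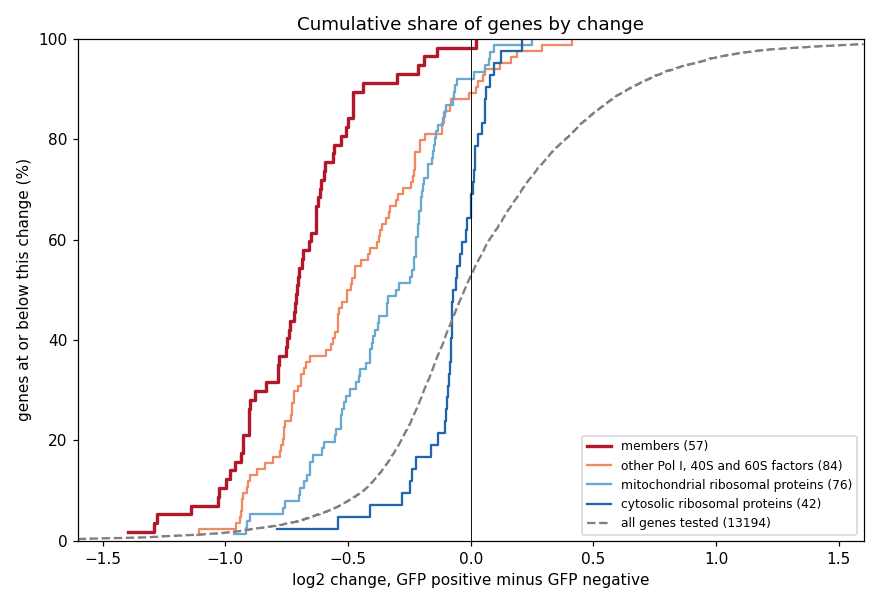
Cumulative share of genes (vertical axis, percent) at or below each log2 change, GFP positive minus GFP negative (horizontal axis), for the 57 members, 84 other factors, 76 mitochondrial and 42 cytosolic ribosomal protein genes and all 13194 genes tested. The curve of the members lies furthest to the left, with its median at -0.71, and that of cytosolic ribosomal proteins has its median at -0.07. A few genes of the whole array lie beyond the axis.

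Promoter sequences were read because the members moved together and because MYC, with its partner MAX, is known to bind the E-box CACGTG near genes of this kind. Myc itself read 7.27, 7.81 and 7.43 in GFP positive samples and 8.52, 8.70 and 8.65 in GFP negative samples, a change of -1.12 ± 0.14 (SE, limma adjusted p = 5.3e-04). Max read 5.70, 5.88 and 5.98 in GFP positive samples and 7.11, 7.13 and 7.10 in GFP negative samples, a change of -1.26 ± 0.09 (limma adjusted p = 7.5e-05). Mycn and Mxd4 were higher on their brightest probe sets. Max, Mycn and Mxd4 were picked after values were seen, and other genes of this family are not shown. Mycn, a relative of Myc whose product binds the same motif, read 11.02, 11.02 and 11.30 in GFP positive samples and 4.68, 4.82 and 5.40 in GFP negative samples (6.15 ± 0.18, limma adjusted p = 3.2e-06). Its other probe sets had differences of -2.47 and -0.11, so the Mycn probe sets disagree in direction. Mxd4, whose product pairs with MAX and opposes MYC, read 5.90, 5.65 and 6.36 in GFP positive samples and 2.83, 3.21 and 2.98 in GFP negative samples (2.96 ± 0.18, limma adjusted p = 4.4e-05), and its other probe sets had differences of 0.23 to 1.92. RefSeq windows from 250 bases before to 50 after the transcription start (GRCm38.p6) were matched by symbol for 52 of the 59 symbols. The palindrome CACGTG, which reads the same on both strands, occurred in the windows of 7 of 46 members that fell (15.2%), against 11.2% of 10609 tested genes with a window, so this short window held it in a share near the background. The members that fell and hold it are Utp20, Wdr43, Utp18, Tsr1, Nop2, Pes1 and Imp4, and Rrn3, which did not pass, holds 2 copies. A match is a string of letters and was not tested as a binding site. Whether MYC, MAX or their relatives had any part in the fall of the members was not tested either.
The stretches below run 5′ to 3′ on the gene's strand from 150 bases before to 30 after the start, with CACGTG in capitals. They show the matches of 5 members that fell and, for contrast, the promoter of Polr1b, the member with the largest fall as deposited, which has no match. Wdr43 lies at chr17:71616065-71616244 (plus strand), Utp18 at chr11:93885737-93885916 (minus strand), Tsr1 at chr11:74897930-74898109 (plus strand), Nop2 at chr6:125131733-125131912 (plus strand), Pes1 at chr11:3963825-3964004 (plus strand) and Polr1b at chr2:129100846-129101025 (plus strand).
Wdr43: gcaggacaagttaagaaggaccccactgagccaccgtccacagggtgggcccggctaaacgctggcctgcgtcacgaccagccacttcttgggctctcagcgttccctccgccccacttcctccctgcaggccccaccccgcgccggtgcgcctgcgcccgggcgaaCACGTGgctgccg
Utp18: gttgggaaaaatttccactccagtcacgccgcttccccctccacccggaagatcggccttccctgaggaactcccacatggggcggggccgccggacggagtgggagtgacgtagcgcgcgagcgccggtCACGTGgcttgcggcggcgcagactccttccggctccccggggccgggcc
Tsr1: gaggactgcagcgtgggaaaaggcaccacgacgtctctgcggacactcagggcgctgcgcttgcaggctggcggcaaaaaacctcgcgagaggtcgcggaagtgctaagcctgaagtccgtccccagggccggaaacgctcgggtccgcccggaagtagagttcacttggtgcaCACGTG
Nop2: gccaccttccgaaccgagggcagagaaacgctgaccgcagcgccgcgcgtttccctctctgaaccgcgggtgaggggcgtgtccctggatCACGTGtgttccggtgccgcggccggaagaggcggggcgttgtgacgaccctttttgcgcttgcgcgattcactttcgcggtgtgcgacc
Pes1: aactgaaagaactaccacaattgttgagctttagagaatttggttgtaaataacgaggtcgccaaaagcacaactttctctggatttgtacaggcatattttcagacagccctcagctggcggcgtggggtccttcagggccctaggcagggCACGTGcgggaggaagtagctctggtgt
Polr1b: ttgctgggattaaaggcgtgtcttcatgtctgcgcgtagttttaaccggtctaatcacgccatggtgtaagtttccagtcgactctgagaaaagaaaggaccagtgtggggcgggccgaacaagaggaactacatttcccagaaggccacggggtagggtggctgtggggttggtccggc
The first base of the match lies 60 bases before the start in Nop2 and 20 before it in Utp18, and at positions 3, 18 and 25 after it in Pes1, Wdr43 and Tsr1. In Imp4 it lies 121 bases before the start and in Utp20 at position 38 after it. Changes of the 7 genes ranged from -0.90 for Utp20 to -0.48 for Imp4, within the range of members without a match.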

How the data were processed

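The authors deposited log2 signal values for 45101 probe sets, made with Affymetrix Expression Console per the submitters' processing notes. Neither a version nor the summary algorithm nor the normalization is given in the sources used here, and the range of the values shows the log2 scale. They were used unchanged. Control probe sets (64) and those with several symbols (932) or no listing (9160) named no gene. Of 18193 genes, those under the 40th percentile of mean signal (1.27) were left out, leaving 13194.

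Groups were compared with limma 3.58.1 in R 4.3.3 (lmFit, eBayes, two-sided, group as the only term), with Benjamini-Hochberg adjustment over all genes tested at 0.05. On simulated data for this comparison (13194 genes, 200 changed) it recovered 42% of changes of 0.5 and 88% of changes of 1 on the log2 scale. In the deposited data 42.1% of genes were called, a far larger part than was changed there. The recovered shares therefore do not carry over to the real comparison. Samples with the same replicate number deviated together (correlations across genes of 0.47, 0.35 and 0.25), so the number was also used as a block.

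The members, lists and tests were chosen with earlier results of these data known. Values in every sample are given for the 3 members of a role with the smallest p and for whole roles of at most 5. For other lists, the 2 largest called changes per direction are named. Other named genes, the non-passing Pol I members' values and the ribosomal protein groups were chosen after values were seen. Cd3eap, Twistnb and Znrd1 are the array's names for the remaining Pol I subunits of the lists.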

Additional observations from a re-analysis of the deposited data

How the results depend on the processing

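With 6 arrays, small changes passed for some genes and not for others. The number of members called lower was 51 to 56 over all 17 alternatives and 0 were called higher in any. With the replicate block it was 53, the same as without it, and the block changed no call of a member. In other lists the block gave 27 other 60S factors called lower, against 26 without it, 5 Pol II subunits, against 6, and 41 mitochondrial ribosomal proteins, against 44. Leaving out 1 sample at a time gave 51 to 53 members called lower and a median change of -0.79 to -0.65. The member median was -0.56 with 32 added in linear units and -0.82 when arrays were centred on the median of probe sets past the dim level, an alternative chosen after seeing the data. That centring moved the median of all genes from -0.02 to -0.14, raised the genes called lower to 3819 and gave 39.6% of calls higher, against 58.4% as deposited and 69.3% when centred on all probe sets. Relative to the median of all genes, the members stood at -0.68 as deposited, a difference that centring cannot change, and at -0.77 (filter at the 60th percentile) to -0.56 (32 added) over all 17 alternatives. Leaving out GFP positive 3 and GFP negative 1 together, whose control probe sets were brightest in their groups (also chosen after seeing the data), gave 2074 genes higher, 1251 lower and 52 members lower. Of 968 recomputed member values, 10 lost the call, 8 gained it and 0 reversed. Calls were lost for Bms1, Nop58, Wdr12 and Ddx10 (-0.61, limma adjusted p = 0.086, with the probe set of largest interquartile range), and gained for Rrn3, Polr1d and Dhx37.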
